A study of Homo sapiens with 6 samples.

Results

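The genes described here encode 10 carriers of amino acids at the plasma membrane, of the 23459 genes in the count table: SLC7A5, SLC3A2, SLC7A11, SLC1A5, SLC1A4, SLC1A3, SLC38A1, SLC38A2, SLC7A1 and SLC7A2. They were chosen by name as carriers that cultured cells commonly use for neutral, acidic and cationic amino acids and for cystine. All 10 were in the table, and 9 passed the filter on low counts. SLC1A4 did not pass. The cells were MCF10A, an established, untransformed human mammary epithelial line, and every description carries the entry WT. Every library came from cells transfected with 20 nM siRNA in medium with horse serum, insulin, hydrocortisone, cholera toxin and EGF. In 3 libraries the siRNA was a non-targeting control (siCtrl), and in 3 it was directed against YAP and TAZ (siYAP/TAZ). YAP1 encodes YAP and WWTR1 encodes TAZ, the transcriptional coactivators that the Hippo pathway restrains. The comparison asks which transporter mRNAs differ when the cells have less YAP and TAZ. RNA was measured by 3′ mRNA-Seq, which reads the end of each polyadenylated transcript.

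Amino acid carriers supply cells with building blocks and set the amino acid levels that the kinase complex mTORC1 senses. SLC3A2 (CD98, 4F2hc) is a glycoprotein heavy chain that pairs with light chains, among them SLC7A5 (LAT1), which exchanges leucine and other large neutral amino acids for glutamine, and SLC7A11 (xCT), which takes up cystine in exchange for glutamate. Transcription of several carrier genes responds to amino acid shortage through ATF4, and SLC7A11 also responds to oxidative stress through NFE2L2 (NRF2).

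Library totals ran from 3175149 to 4317286 counts, and 16629 to 17305 genes had at least 1 count. For replicate 2 of both groups title and description contradict each other, and the groups used here follow the description, by which the count table names its columns. The replicate number also differs between title and description, for 4 of the 6 libraries, and numbers and pairs here are those of the descriptions. YAP1 had 188.7, 203.7 and 210.3 CPM (TMM-normalised counts) with siCtrl and 116.5, 118.0 and 111.8 CPM with siYAP/TAZ, so each library's YAP1 level matched its description. The log2 fold change was -0.80 (SE 0.12, adjusted p = 0.0138) for YAP1 and -0.69 (SE 0.13, adjusted p = 0.0311) for WWTR1. With 1 library left out the call of YAP1 was lost for the third siCtrl library and for siYAP/TAZ libraries 2 and 3 (adjusted p of at most 0.112), and that of WWTR1 without any library but siCtrl replicate 2 (adjusted p of at most 0.176). On the first principal component siCtrl library 2 (6.98) lay nearer to the siYAP/TAZ libraries (9.18, 32.2 and 25.8) than to siCtrl libraries 1 and 3 (-40.7 and -33.3). Results are therefore also given without both disputed libraries. All 9 epithelial markers passed the filter on low counts, led by the keratins KRT6A and KRT5 at 1185 and 912 mean CPM in siCtrl. KRT6A was at 714 mean CPM in siYAP/TAZ (log2 fold change -0.73, adjusted p = 0.0715). That was the lowest estimate of the 9 markers, which ran up to 0.58, with 5 negative and 4 positive. Of the 6 fibroblast markers only PDGFRA passed, at 161 mean CPM, and COL1A2 and COL3A1 had 0 counts in every library. The 5 endothelial markers summed to 2.26 to 4.01 CPM in a siCtrl library and to 5.67 to 12.9 CPM in a siYAP/TAZ library. Only PECAM1 of them passed the filter, with 4 to 29 counts a library (log2 fold change 2.10, edgeR adjusted p = 0.0785). The 5 immune markers summed to 4.08 to 12.0 CPM in a library, and only CD14 passed the filter (log2 fold change -0.41, edgeR adjusted p = 0.621). No label says that the replicates came from separate cultures, so p-values measure the spread between libraries, which may be technical.

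To show the DNA in front of genes to which the results below return, the 250 bases before a RefSeq start site are printed. The genes are SLC7A5, SLC3A2 and SLC7A1. SLC7A1 was the carrier whose groups did not overlap, beside 11.1% of all genes tested that separated in the same direction. The sequences are from the RefSeq promoter table (GRCh38.p14), were placed on GRCh37 by an exact match, and are written 5′ to 3′ on the strand of the gene. Capitals mark matches, on either strand, to TGATGNAA (the amino acid response element that ATF4 binds), TGACNNNGC (the antioxidant response element), CACGTG (the E-box), GGAATG (the TEAD site) or TGACTCA (the AP-1 site, which can lie inside TGACNNNGC). The windows are chr16:87903114-87903363 on the minus strand, chr11:62648921-62649170 on the plus strand (window 3 of SLC3A2) and chr13:30169826-30170075 on the minus strand.
SLC7A5: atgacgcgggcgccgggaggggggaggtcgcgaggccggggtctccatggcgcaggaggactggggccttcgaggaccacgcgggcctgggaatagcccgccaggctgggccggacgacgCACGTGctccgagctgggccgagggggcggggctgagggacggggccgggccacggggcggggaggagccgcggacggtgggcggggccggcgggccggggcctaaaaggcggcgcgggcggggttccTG
SLC3A2: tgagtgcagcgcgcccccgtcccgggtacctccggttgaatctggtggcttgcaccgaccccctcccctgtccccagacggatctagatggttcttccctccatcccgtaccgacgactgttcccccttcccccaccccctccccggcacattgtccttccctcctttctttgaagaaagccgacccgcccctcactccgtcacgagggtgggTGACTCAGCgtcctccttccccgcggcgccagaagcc
SLC7A1: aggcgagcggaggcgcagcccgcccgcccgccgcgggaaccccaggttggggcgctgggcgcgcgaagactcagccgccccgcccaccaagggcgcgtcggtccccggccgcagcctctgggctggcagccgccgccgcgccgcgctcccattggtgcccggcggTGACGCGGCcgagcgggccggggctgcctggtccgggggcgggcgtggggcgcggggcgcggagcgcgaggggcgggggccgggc
The SLC7A5 window held an E-box 130 bases before the start, and its last letters begin an antioxidant element match that runs over the start. The SLC3A2 window held TGACTCAGC, a match to the antioxidant element with an AP-1 match inside it, beginning 37 bases before the start. The SLC7A1 window held TGACGCGGC beginning 85 bases before the start.

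The table held 16 start-site windows for 8 of the carriers, each of 300 bases, 250 before and 50 after the start. SLC7A11 was not among them and SLC7A2 was not used. TGATGNAA was in 6 of these 16 windows, of 6 carriers, and in 3.62% of all 35116 windows. The matched letters were TGATGCAA for SLC1A5, SLC1A4 and SLC1A3, TGATGAAA for SLC38A1 and SLC7A1, and TGATGTAA for SLC3A2. In SLC1A5 the match began 97 bases and in SLC1A3 220 bases before the start, in SLC1A4 and SLC38A1 it lay across the start, and in SLC3A2 and SLC7A1 it lay within the 50 bases after it. TGACNNNGC was in 5 of the 16 windows (13.3% of all windows), CACGTG in 2 (7.26%), GGAATG in 2 (14%) and TGACTCA in 3 (4.95%). The GGAATG matches were in windows of SLC1A5 and SLC1A3. A match is a string of letters only, and several windows belong to 1 gene.

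None of the 9 carriers tested passed the threshold of adjusted p under 0.05 in the quasi-likelihood F test of edgeR. The count was 0 lower and 0 higher in siYAP/TAZ, against 1.22% of the 12510 genes tested that were lower and 0.743% that were higher. DESeq2 also gave 0. At an unadjusted p under 0.05, 1 carrier (SLC7A1) was lower and 0 were higher, beside 9.27% and 8.40% of all genes. The estimate was negative for 7 carriers and positive for 2, beside 50.1% negative among all genes tested. The carriers' median log2 fold change was -0.081, beside -0.00093 for all genes tested. Every siYAP/TAZ library was under every siCtrl library for 1 carrier, SLC7A1, and above for 0, beside 11.1% and 11.0% of all genes. The carriers' shares called, and separated by group, were near the background shares. Summed over the 10 genes, the level was 1958, 1615 and 1651 CPM with siCtrl and 1798, 1590 and 1602 CPM with siYAP/TAZ, so the groups overlapped.

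**Figure D1:**
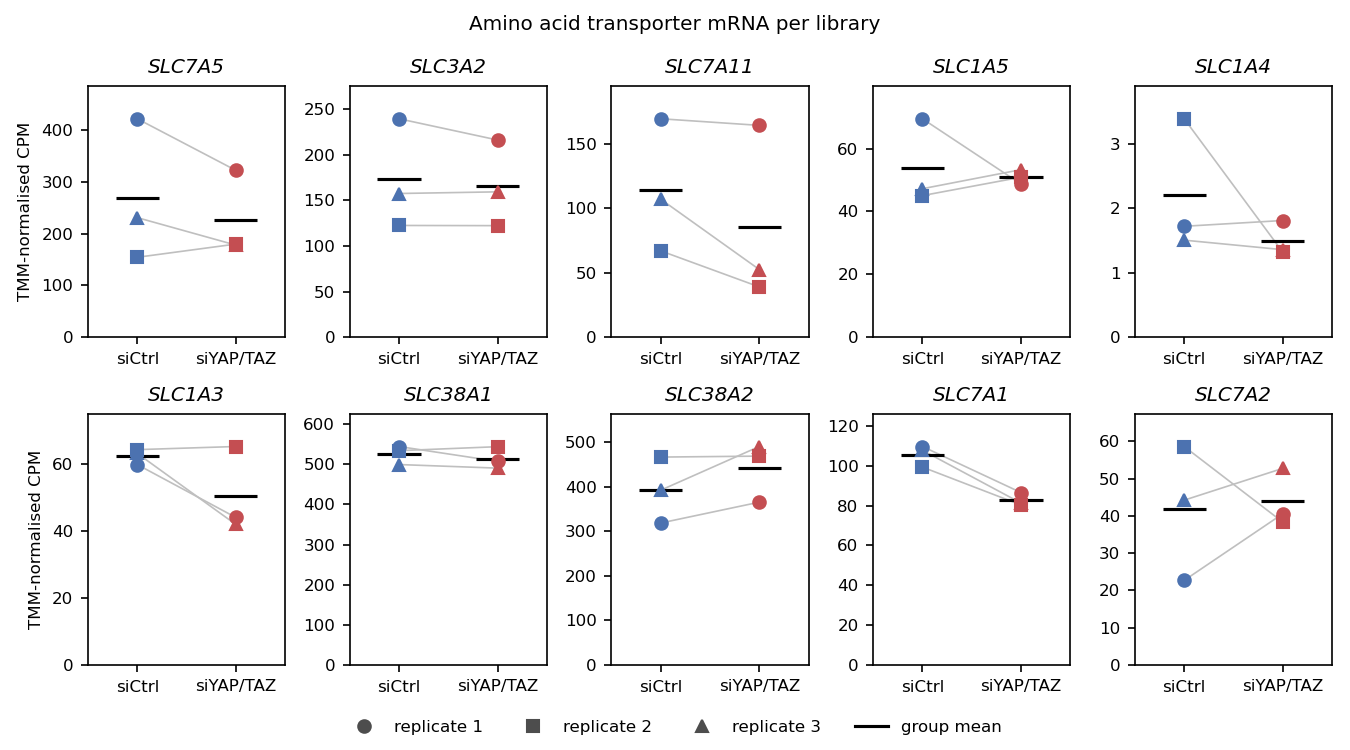
TMM-normalised CPM (y axes from 0, each panel with its own scale) of the 10 carrier mRNAs in the 3 siCtrl (blue) and 3 siYAP/TAZ (red) libraries. Marker shapes give the replicate number, grey lines join libraries of the same number and black bars are group means. The groups separate for SLC7A1 alone, beside 11.1% of all genes tested that separate in the same direction. Replicate 1 is the highest of both groups for SLC7A5, SLC3A2, SLC7A11 and, by little, SLC7A1.

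SLC3A2, the heavy chain, was nearly level between the groups. Its mRNA (GRCh37 chromosome 11, 62623476 to 62656352, plus strand) stood at 239.5, 122.5 and 157.6 CPM in siCtrl replicates 1, 2 and 3 and at 216.2, 122.3 and 159.4 CPM in the siYAP/TAZ libraries of the same numbers. The spread within each group was far wider than the distance between the groups, and each numbered pair lay close together. The means were 173 ± 60.1 and 166 ± 47.3 CPM (SD, n = 3), with a log2 fold change of -0.059 (95% interval -0.65 to 0.53, edgeR adjusted p = 0.932).

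SLC7A5 (chromosome 16, 87863629 to 87903113, minus strand), the leucine carrier, had 421.9, 154.3 and 230.9 CPM with siCtrl and 322.3, 179.8 and 177.9 CPM with siYAP/TAZ. Replicate 1 was the highest library in both groups, and the groups overlapped. The means were 269 ± 138 and 227 ± 82.8 CPM (SD, n = 3), the log2 fold change was -0.25 (95% interval -1.04 to 0.55) and the edgeR adjusted p was 0.767. Its 2 pseudogenes could share reads with it, and the treatment of such reads is not given. SLC7A5P1 had 1 count in 1 library and none in the others, and SLC7A5P2 had 4 to 8 counts a library, so at most a small part of the signal was assigned to them.

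SLC7A11 (chromosome 4, 139085251 to 139163503, minus strand), the cystine carrier, had the largest standard error of the fold change among the 9 carriers tested. Its levels were 169.4, 67.0 and 107.0 CPM with siCtrl and 164.3, 39.0 and 52.5 CPM with siYAP/TAZ. It was lower in siYAP/TAZ in 3 of 3 pairs of the same number, by little in pair 1 and by more in pairs 2 and 3, while the groups as wholes overlapped. The log2 fold change was -0.41 (SE 0.50, 95% interval -1.53 to 0.71, edgeR adjusted p = 0.715). With the replicate number as a block it was -0.58 (SE 0.18, adjusted p = 0.0645), which did not pass the threshold. Single libraries moved the unblocked estimate widely, from -0.41 to -1.32, -0.074 and -0.16 when libraries 1, 2 and 3 of siYAP/TAZ were dropped in turn, and to -0.018 and -0.67 when libraries 1 and 2 of siCtrl were (adjusted p from 0.118 to 0.994).

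The carriers of the SLC1 family showed no difference that passed the test. SLC1A5 (ASCT2, chromosome 19, 47278140 to 47291851, minus strand), an exchanger of glutamine and other neutral amino acids, had 69.5, 45.1 and 47.2 CPM with siCtrl and 48.7, 50.9 and 53.3 CPM with siYAP/TAZ. The siCtrl replicate 1 library was high and the other 5 lay close together. The log2 fold change was -0.081 (95% interval -0.50 to 0.33, edgeR adjusted p = 0.859). Its relative SLC1A4 (ASCT1, chromosome 2, 65215611 to 65250999, plus strand), which exchanges serine, alanine and cysteine, was close to the limit of detection. It had 6, 11 and 6 counts with siCtrl and 8, 4 and 5 with siYAP/TAZ, too few to detect a difference at this depth.

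SLC1A3 (EAAT1, chromosome 5, 36596690 to 36688436, plus strand), a sodium-driven carrier of glutamate and aspartate, had 59.7, 64.2 and 63.1 CPM with siCtrl and 43.97, 65.1 and 41.9 CPM with siYAP/TAZ. In siYAP/TAZ 2 libraries were below every control and the library labelled siYAP/TAZ replicate 2, of disputed title, was above every control. The means were 62.3 ± 2.32 and 50.3 ± 12.9 CPM (SD, n = 3), with a log2 fold change of -0.31 (95% interval -0.73 to 0.10, edgeR adjusted p = 0.409). Without both disputed libraries the log2 fold change was -0.51 (SE 0.16, adjusted p = 0.0688), with 2 libraries a group, which still missed the threshold.

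The system A carriers, which bring in small neutral amino acids such as alanine and glutamine with sodium, were the most abundant of the set. SLC38A1 (SNAT1, chromosome 12, 46576846 to 46663800, minus strand) had 544.5, 534.2 and 499.6 CPM with siCtrl and 507.5, 544.1 and 490.6 CPM with siYAP/TAZ. The 6 libraries lay close together, and the interval of the log2 fold change, -0.32 to 0.25 around -0.033 (edgeR adjusted p = 0.920), was among the narrowest. SLC38A2 (SNAT2, chromosome 12, 46751971 to 46766556, minus strand), the member known to rise in amino acid shortage, had 318.8, 466.9 and 392.5 CPM with siCtrl and 365.6, 469.1 and 490.6 CPM with siYAP/TAZ. It was higher in siYAP/TAZ in every pair of the same number, by very little in pair 2, and the groups overlapped. Its log2 fold change was 0.17 (95% interval -0.23 to 0.57, edgeR adjusted p = 0.672), and with 1 library left out it ran from 0.040 (siCtrl library 1 dropped) to 0.31 (siCtrl library 2 dropped), with 0.29 and 0.091 when libraries 1 and 3 of siYAP/TAZ were dropped.

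SLC7A1 (CAT1, chromosome 13, 30083551 to 30169825, minus strand), the general carrier of arginine and lysine, was the carrier whose groups did not overlap. Of all genes tested, 11.1% separated in the same direction. It had 109.7, 99.4 and 107.8 CPM with siCtrl and 86.6, 80.3 and 81.3 CPM with siYAP/TAZ. The means were 106 ± 5.51 and 82.7 ± 3.36 CPM (SD, n = 3). The log2 fold change was -0.35 (SE 0.12, 95% interval -0.63 to -0.078, unadjusted p = 0.0171 in the edgeR fit), and the adjusted p over all genes was 0.180, which did not pass. Without both disputed libraries it was -0.37 (adjusted p = 0.140).

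SLC7A2 (CAT2, chromosome 8, 17354597 to 17428082, plus strand), the second cationic carrier, had 22.7, 58.6 and 44.2 CPM with siCtrl and 40.6, 38.3 and 52.8 CPM with siYAP/TAZ. The siYAP/TAZ libraries all lay inside the range of siCtrl. Its log2 fold change was 0.072 (95% interval -0.60 to 0.74, edgeR adjusted p = 0.926), and without both disputed libraries it was 0.47 (adjusted p = 0.326).

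**Figure D2:**
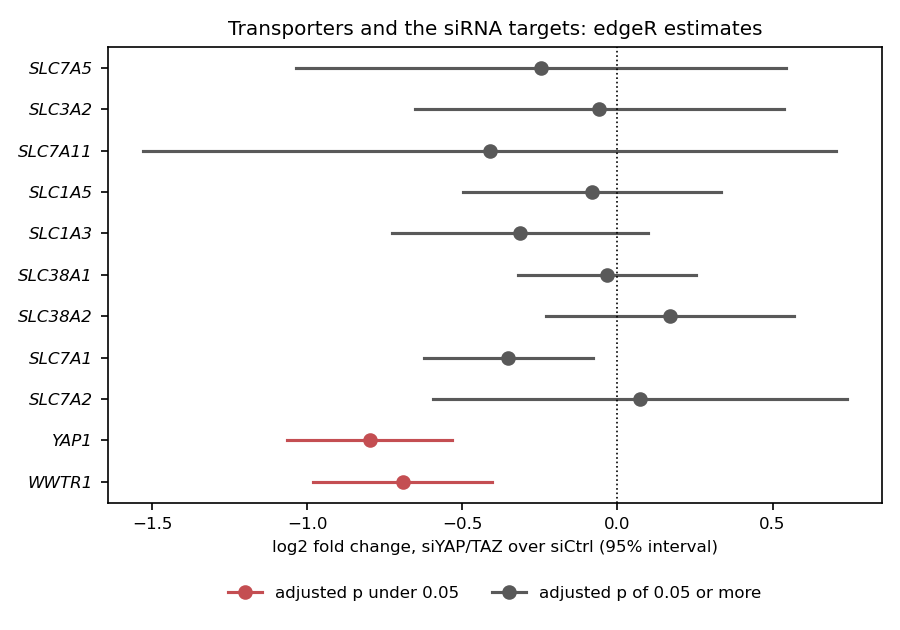
Log2 fold change of siYAP/TAZ over siCtrl (x axis) with its 95% interval from edgeR for the 9 carriers tested and for both siRNA targets; red marks an adjusted p under 0.05. YAP1 at -0.80 and WWTR1 at -0.69 are red, no carrier is, and the interval of SLC7A1 lies below 0 before adjustment.

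With 3′ libraries a transcript is read at its end whatever its length, so CPM was used to order the carriers without division by length. In siCtrl SLC38A1 led with 526 CPM and its range did not overlap that of SLC38A2 at 393 CPM. The ranges of neighbours then overlapped from SLC38A2 through SLC7A5 (269 CPM), SLC3A2 (173 CPM), SLC7A11 (114 CPM) and SLC7A1 (106 CPM). A gap set off SLC1A3 (62.3 CPM), SLC1A5 (53.9 CPM) and SLC7A2 (41.8 CPM), whose ranges overlapped, and a further gap set off SLC1A4 at 2.21 CPM. In siYAP/TAZ the order of the means was the same except that SLC1A5 (51.0 CPM) stood just above SLC1A3 (50.3 CPM), and these overlapped. There SLC38A1 (514 CPM) overlapped SLC38A2 (442 CPM), and SLC38A2 did not overlap SLC7A5 (227 CPM).

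SLC7A5, SLC3A2 and SLC7A11 differed between replicate numbers, an aspect that was examined after their values were seen. In the blocked fit all 3 differed between replicate numbers, with edgeR adjusted p of 0.0153 for SLC7A5, 0.0220 for SLC3A2 and 0.00947 for SLC7A11, which is 3 of 9 carriers tested beside 1.81% of all genes. Replicate 2 was below replicate 1 by a log2 difference of -1.14 for SLC7A5, -0.89 for SLC3A2 and -1.72 for SLC7A11, and replicate 3 was below replicate 1 by -0.86, -0.52 and -1.15. These 3 genes encode the CD98 heavy chain and both of the light chains in the set. The other 6 carriers of the set did not pass this test. Outside the set, 0 of the 8 other plasma membrane carriers tested passed it. Among these were SLC7A8 and SLC7A6, which are also light chains of SLC3A2. SLC7A8 (edgeR adjusted p = 0.977) had 3 to 36 counts a library. SLC7A6 (edgeR adjusted p = 0.931) had 125 to 174 counts a library, with log2 differences of -0.092 and -0.10 from replicate 1. SLC38A2 was lowest in replicate 1 of both groups, with log2 differences of 0.46 and 0.36 from replicate 1 (adjusted p = 0.183).

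The call rested on single libraries in part. SLC7A11 passed with any 1 library left out, with adjusted p of at most 0.0415. SLC7A5 did not pass without siCtrl replicate 1 (adjusted p = 0.127), siCtrl replicate 3 (0.0598) or siYAP/TAZ replicate 3 (0.0790). SLC3A2 did not pass without any of these (0.220, 0.0914 and 0.0965) or without siYAP/TAZ replicate 1 (0.0839). What the replicate number stands for is not stated in the labels. With groups and numbers taken from the titles, which was tried after seeing the data, 0 carriers and 0 of all genes differed between numbers (adjusted p = 0.711 for SLC7A11, and 1 carrier, SLC7A11, had an unadjusted edgeR p under 0.05, at 0.0190). GCLM, a subunit of the enzyme for the first step of glutathione synthesis from cysteine, also differed between replicate numbers (adjusted p = 0.0146). It was highest in replicate 1 of both groups, at 113.4 and 138.7 CPM. It was the only 1 to pass of the 14 enzymes tested that use amino acids, beside 1.81% of all genes. GSS, the second enzyme of that synthesis, did not pass (edgeR adjusted p = 0.754). Of the 10 proliferation markers 2 passed, CCNA2 (0.0454) and RRM2 (0.00568), and 7 of the 10 were highest in replicate 1 of both groups, beside 18.9% of all genes and 4 of the 9 carriers. The part of cell growth in the carriers' levels was not tested.

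**Figure D3:**
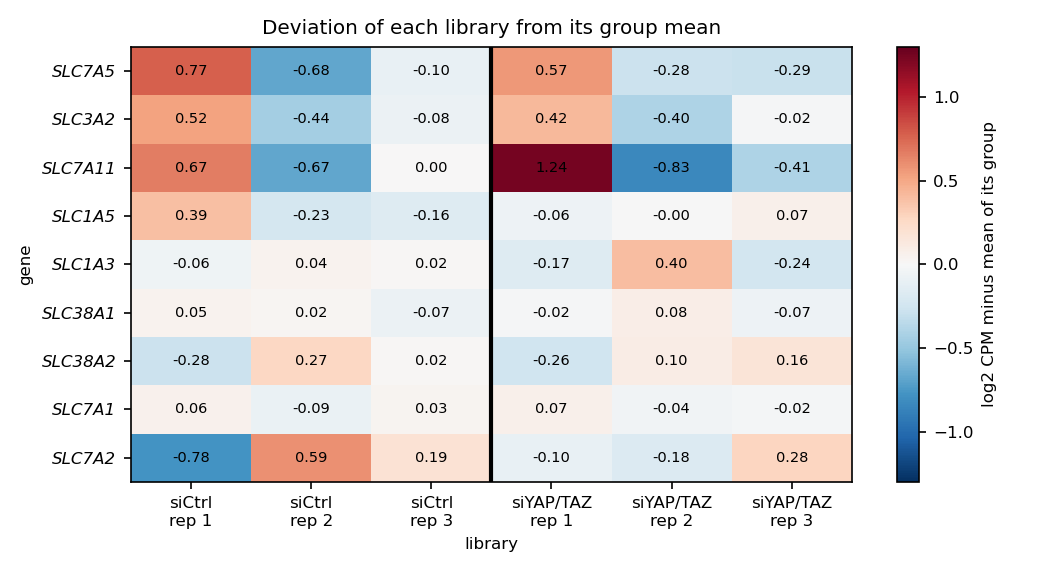
Log2 CPM of each library minus the mean of its own group, for the 9 carriers tested (rows) and the 6 libraries (columns), with the value printed in each cell and colour from blue (below) to red (above). Replicate 1 of both groups is above its group mean by 0.77 and 0.57 for SLC7A5, by 0.52 and 0.42 for SLC3A2 and by 0.67 and 1.24 for SLC7A11.

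Ratios of 2 carriers within a library do not depend on scaling. The log2 ratio of SLC7A5 to SLC3A2 was 0.82, 0.33 and 0.55 with siCtrl and 0.58, 0.56 and 0.16 with siYAP/TAZ, so the leucine carrier's counts exceeded those of the heavy chain in every library. The difference between the groups was -0.14 (SE 0.20, exact permutation p = 0.6, two-sided). The log2 ratio of SLC7A11 to SLC3A2 was -0.50, -0.87 and -0.56 with siCtrl and -0.40, -1.64 and -1.60 with siYAP/TAZ, a difference of -0.57 (SE 0.42, exact permutation p = 0.4), with siYAP/TAZ replicate 1 above every control and the other 2 below every control. For SLC7A11 over SLC7A5 the difference was -0.43 (SE 0.36), for SLC1A5 over SLC1A4 0.39 (SE 0.49), for SLC38A2 over SLC38A1 0.21 (SE 0.22) and for SLC7A2 over SLC7A1 0.51 (SE 0.47). The adjusted p over the 6 ratios was 0.7 for each in the exact permutation tests, in which 3 libraries against 3 cannot go below 0.1.

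Among 21 other amino acid carriers of the plasma membrane, 8 passed the filter on low counts. Of these 1 rose and 0 fell, beside 0.743% of all genes tested called higher and 1.22% called lower. The one that rose was SLC43A2 (LAT4, chromosome 17, 1472562 to 1532180, minus strand), which carries branched-chain amino acids and phenylalanine without the CD98 heavy chain. It had 16.7, 18.2 and 9.05 CPM with siCtrl and 37.9, 51.6 and 46.5 CPM with siYAP/TAZ. Every siYAP/TAZ library was above every control, with means of 14.6 ± 4.90 and 45.3 ± 6.94 CPM (SD, n = 3). The log2 fold change was 1.64 (SE 0.26, edgeR adjusted p = 0.0168), and without both disputed libraries it was 1.73 (adjusted p = 0.00550). The call was lost without siCtrl replicate 3 (adjusted p = 0.0703), siYAP/TAZ replicate 2 (0.0681) or siYAP/TAZ replicate 3 (0.110), with the estimate between 1.37 and 1.62, and with groups by title (0.43, adjusted p = 0.914).

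SLC7A8 (LAT2), another light chain of SLC3A2, had 4, 14 and 3 counts with siCtrl and 36, 10 and 28 with siYAP/TAZ. Both replicate 2 libraries lay between the others, and the log2 fold change of 1.68 (SE 0.60) did not pass (edgeR adjusted p = 0.189). Without both disputed libraries it was 3.03 (adjusted p = 0.00557). The other 6 tested, SLC1A1, SLC3A1, SLC7A6, SLC38A4, SLC6A9 and SLC6A15, had log2 fold changes from -0.31 to 0.40.

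**Figure D4:**
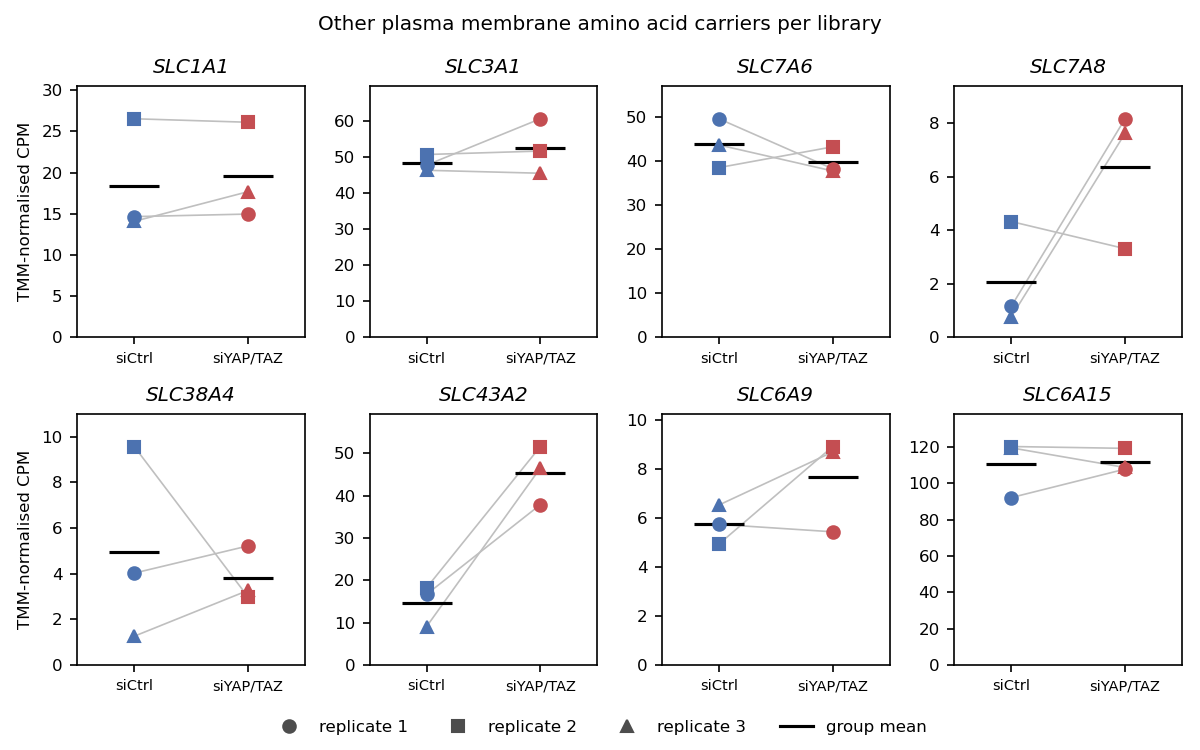
TMM-normalised CPM (y axes from 0, each panel with its own scale) of the 8 other plasma membrane carriers that passed the filter, by group; shapes give the replicate number, grey lines join equal numbers and black bars are group means. SLC43A2 lies at 9.05 to 18.2 CPM in siCtrl and 37.9 to 51.6 CPM in siYAP/TAZ, and the groups of the other 7 overlap.

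Genes that act with these carriers gave few calls. Of the transporters of lysosomes and mitochondria 12 of 13 were tested and 0 passed in either direction. The smallest p values were those of SLC38A7, a lysosomal glutamine carrier (log2 fold change 0.75, edgeR adjusted p = 0.217), and SLC25A12, the mitochondrial aspartate and glutamate carrier (0.33, adjusted p = 0.292). Of the amino acid response genes 17 of 18 were tested and 0 passed. Their median log2 fold change was -0.12, with 14 of 17 estimates negative, beside 50.1% of all genes. STC2 and MTHFD2, targets of ATF4, had log2 fold changes of -0.67 (adjusted p = 0.0981) and -0.54 (adjusted p = 0.121), and with the replicate block these were -0.69 (adjusted p = 0.00839) and -0.55 (adjusted p = 0.0160). NUPR1, a stress-responsive nuclear protein, was called higher with the block at 1.19 (adjusted p = 0.0425), from 1.148 (adjusted p = 0.159) without it. These are 2 lower and 1 higher of the 17, beside 5.44% of all genes called lower and 4.66% called higher with the block. ATF4 itself had a log2 fold change of 0.15 (adjusted p = 0.694).

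Of the enzymes that use amino acids 14 of 15 were tested and 0 passed. GLUL, which makes glutamine from glutamate, had 34.2, 295.3 and 50.01 CPM with siCtrl and 191.7, 365.3 and 417.2 CPM with siYAP/TAZ. The siCtrl replicate 2 library lay among the siYAP/TAZ libraries. The log2 fold change was 1.36 (SE 0.68, edgeR adjusted p = 0.334), with the replicate block 1.90 (adjusted p = 0.0161), without siCtrl replicate 2 it was 2.94 (adjusted p = 0.000863) and without both disputed libraries 2.85 (adjusted p = 0.00132). GSS, the second enzyme of glutathione synthesis, was at -0.43 (adjusted p = 0.294).

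Of the genes of mTORC1, its regulators and amino acid sensing 22 of 23 were tested and 0 passed. The smallest p values were those of SESN3 (1.18, edgeR adjusted p = 0.161) and TSC2 (0.68, adjusted p = 0.205). Of 8 regulators and partners of the carriers 0 passed. ITGB1, the integrin chain that binds CD98, was at -0.68 (adjusted p = 0.0560, 0.00289 with the replicate block), and MYC at -0.21 (adjusted p = 0.572). Of the 10 proliferation markers 3 fell, BUB1 by 1.31, CCNB1 by 0.89 and TOP2A by 0.85 on the log2 scale (adjusted p = 0.0225, 0.0315 and 0.0303), and 0 rose. The count of 3 was 9 with the replicate block or without both disputed libraries, 8 with DESeq2 or no low-count filter, 10 when siCtrl library 2 and 7 when siYAP/TAZ library 1 was left out. Of all genes tested, 1.22% were called lower in the main fit and 5.44% with the replicate block. All calls of the proliferation list were lost with groups by title. The calls of BUB1, CCNB1 and TOP2A were also lost without replicate 1 or 3 of siCtrl or replicate 2 or 3 of siYAP/TAZ (adjusted p from 0.0710 to 0.172), each with a log2 fold change of -0.74 or lower. The summed level of the 10 was 1823, 1355 and 1725 CPM with siCtrl and 1094, 660.4 and 768.0 CPM with siYAP/TAZ. In bulk samples fewer cells in the cycle and less RNA per cell cannot be told apart. The summed level of the 10 carriers in siYAP/TAZ was 95.5% of that in siCtrl, beside 51.5% for the proliferation markers. SLC38A1 and SLC38A2 made up 30.2% and 22.6% of the carrier sum in siCtrl. Single carriers ran from 67.8% (SLC1A4, at few counts) and 74.5% (SLC7A11) to 112% (SLC38A2) of their siCtrl mean.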

How the data were processed

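The data were 6 libraries of 3′ mRNA-Seq from MCF10A cells, 3 siCtrl and 3 siYAP/TAZ, grouped by the description field. The authors deposited raw counts per Entrez gene without normalisation. The submitters' processing notes name cutadapt 4.2, Bowtie2 2.3.5.1 and hg19. How strand and reads with several matches were treated is not given in the sources used here. No exon on the opposite strand overlapped the last 500 bases of any of the 10 carrier genes in GENCODE 44 lifted to GRCh37. Symbols were matched for 23308 of 23459 rows (99.7% of counts).

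Counts were tested with edgeR 4.0.16 (R 4.3.3): filterByExpr, TMM scaling, the quasi-likelihood F test on group alone, Benjamini-Hochberg correction across 12510 genes, and a threshold of 0.05. Errors of fold changes are standard errors derived from the F statistic. The floor set by 3 counts was 0.680 to 0.992 CPM and covers counting error only. Exact permutation tests compared within-library ratios (0.5 added to each count). Alternatives were RLE scaling, library size alone, no filter, a mean of at least 50 counts, DESeq2 1.42.0, robust dispersion, the replicate block, groups by title, and libraries left out. The test of replicate number and its repeat with the titles were chosen after seeing the data. The code was tested on simulated data.

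Deviations from group means correlated across genes between libraries of the same number (r = 0.43, 0.35 and 0.13, with genes not independent replicates). Libraries of different numbers were not compared in this way, so these values do not test the pairing. The numbers in the description field were taken to pair the libraries. The titles give other numbers for 4 of the 6 libraries. The carriers and gene lists were chosen with earlier results of these data known. Named genes were all 10 carriers, both targets, both SLC7A5 pseudogenes, up to 4 called genes of each other list with the largest change or, where fewer than 2 passed, the 2 with the smallest p, and the 5 genes nearest in profile to SLC7A5 and to SLC3A2, of which 1 is not reported here. ATF4, NUPR1, KRT5, KRT6A, PDGFRA, COL1A2, COL3A1, PECAM1, CD14, GCLM, CCNA2, RRM2 and the remaining carriers were named after their values were seen.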

Additional observations from a re-analysis of the deposited data

How the results depend on the processing

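No carrier passed the threshold between siYAP/TAZ and siCtrl under any of the 15 alternatives, and the lowest adjusted p was 0.0645, for SLC7A11 with the replicate block. The block changed no carrier's call. Over all genes, the counts lower and higher were 152 and 93, 299 and 257 without the low-count filter, 328 and 250 with DESeq2, 680 and 583 with the replicate block, 0 and 0 with groups by title, and 591 and 592 without both disputed libraries. With 1 library left out they ran from 10 (without siCtrl replicate 3) to 798 (without siCtrl replicate 2) lower and from 6 to 781 higher, with the same libraries left out. The sign of an estimate changed without 1 library for SLC7A5 (-0.59 to 0.24 over the libraries left out), SLC3A2 (-0.30 to 0.25), SLC1A5 (-0.19 to 0.14), SLC38A1 (-0.073 to 0.0029) and SLC7A2 (-0.22 to 0.39), and with groups by title for SLC25A12 (-0.0035). The number of carriers that differed between replicate numbers was 3 under the other scalings, filters and DESeq2, and 1 to 5 with 1 library left out. It was 1 without replicate 1 or 3 of siCtrl or the third of siYAP/TAZ, and 5 without the second of siYAP/TAZ. The calls over all genes moved as well, from 226 of 12510 to 2071 of 12828 without the second of siYAP/TAZ. They were 141 of 12848 and 57 of 12683 without replicates 1 and 3 of siCtrl, and 49 of 12665 without the third of siYAP/TAZ. With groups and numbers from the titles 0 carriers and 0 of all genes differed. With groups by title the calls of YAP1, WWTR1, SLC43A2, BUB1, CCNB1 and TOP2A were lost, with their direction kept. The cause was not tested. Without a change of sign, leaving out 1 library gave -1.32 to -0.018 for SLC7A11, -0.53 to -0.19 for SLC1A3, 0.040 to 0.31 for SLC38A2 and -0.39 to -0.32 for SLC7A1. Depth limits SLC1A4 above all.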

Other observations

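The tested genes whose mean-centred log2 CPM lay nearest to SLC7A5 over the 6 libraries were PNO1 (Euclidean distance 0.216), CASP8 (0.241), TIMM10 (0.308), BDKRB1 (0.327) and RAB5IF (0.353). Among those nearest to SLC3A2 were RAMAC (0.187), ABT1 (0.224), CERS2 (0.229) and R3HCC1 (0.248). With 12510 genes and 6 libraries, near profiles occur for many genes, and nothing about function follows from them.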
